A study of Mus musculus with 12 samples.

Results

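The 44 collagen genes described here were chosen by name, as every probe of the array whose gene name is Col, digits, the letter a and digits. They were measured by 87 of the 41174 probes, which carry 27373 gene names in all. The fibrillar class held 11 genes, the basement membrane zone 9 genes and the other collagens 24 genes. The RNA came from whole back skin of male C57BL/6J mice, 8 weeks old at the start, whose shaved backs received 200 µL per day of MXD at 3%, N-CE at 10% or the vehicle. MXD is minoxidil, a drug used against hair loss, N-CE is an extract of cells of the cactus Notocactus ottonis, and VC is propylene glycol, ethanol and water, which both treated groups received as solvent. Skin was taken at 1W, 2W and 3W, the weeks of treatment, and the RNA of 6 mice was pooled per group, so the spread between mice was not measured. A treated pool and the VC pool of the same week were labelled with Cy5 and Cy3 and hybridized together, once in each dye orientation, which gives 6 comparisons on 12 arrays. The MXD and N-CE comparisons of a week share their VC pool and their slide, so slide and week cannot be told apart.

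Collagens are secreted proteins of the extracellular matrix whose chains wind around each other into a helix. In skin, fibrillar collagens such as types I, III and V build the dermal fibrils that give the tissue its strength, and fibroblasts make most of them. Network-forming type IV collagen lies in the basement membrane below the epidermis, around hair follicles and around vessels, where types VII and XVII anchor the epidermis to the dermis. Other collagens coat the fibrils, form microfibrils or span the cell membrane.

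The helix requires glycine at regular short steps along the chain, and its code can be read in some of the probes. A search for a glycine codon, which is GG followed by any base N, at every 9 bases along the whole probe found 3 of the 41174 probes, and all of them belong to fibrillar collagens. They are shown because they carry the repeat that defines the family, with the glycine codons in capitals, on the probe's strand and at mm9 positions as the arrays give them. The first lies at chr2:27842243-27844666 on the plus strand, the second at chr9:20590066-20590795 on the minus strand and the third at chr17:34189287-34189453 on the plus strand. Each span is longer than its 60 bases.
Col5a1: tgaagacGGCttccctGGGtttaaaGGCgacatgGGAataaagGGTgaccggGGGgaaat
Col5a3: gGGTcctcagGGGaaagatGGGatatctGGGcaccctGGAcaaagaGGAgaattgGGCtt
Col11a2: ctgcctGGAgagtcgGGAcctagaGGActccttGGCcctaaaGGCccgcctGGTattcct

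Values are log2 folds of treated over VC from the deposited log ratios, as the mean ± SD of the 2 arrays of a dye swap. The SD describes the measurement and not the mice. A gene is represented by its brightest probe, and it counts as measured where that probe was well above background in both groups on at least 1 array. It was called up or down when the deposited P was below 0.01 on both arrays in one direction and the mean fold was above 1.5 or below 0.75. Because each group is 1 pool, a call describes those pools and no test across samples was possible within a week. Between 36 and 40 collagen genes were measured per comparison. Between 65.7% and 82.9% of the 105 collagen spots were well above background per array and channel, and 0 were saturated. The median of all genes lay between 0 and 0.03 in each comparison. The tissue label was checked with genes of the epidermis, and Krt1 and Krt14 were well above background in all 24 channels. Krt5 and Lor were so in 22 channels and Krt10 in 14, which were all the channels whose spots were not marked as outliers. In whole skin, fewer cells of a type and less RNA per cell cannot be told apart.

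Most collagen calls fell in the MXD group at 1W and 2W. In the first week 5 collagen genes were called up and 1 down, in the second 4 were called up and 8 down, and in the last both counts were 0. N-CE had 1 call, Col11a1 at 1W, which was down. For MXD, in the order of the weeks, the background share of genes called up was 1.25%, 6.49% and 0.285%, and the share called down was 1.31%, 10.6% and 0.285%. In N-CE the share called up was 0.575%, 0.123% and 0.227% in the same order, and the share called down was 2.73%, 0.0784% and 0.216%. In MXD at 1W the 5 of 40 measured collagens called up thus stood against 1.25% of all genes. In MXD at 2W the 8 of 36 called down stood against 10.6%, and the 4 called up against 6.49%. In N-CE at 1W the 1 of 38 measured collagens called down stood against 2.73% of all genes, a share of similar size.

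**Figure D1:**
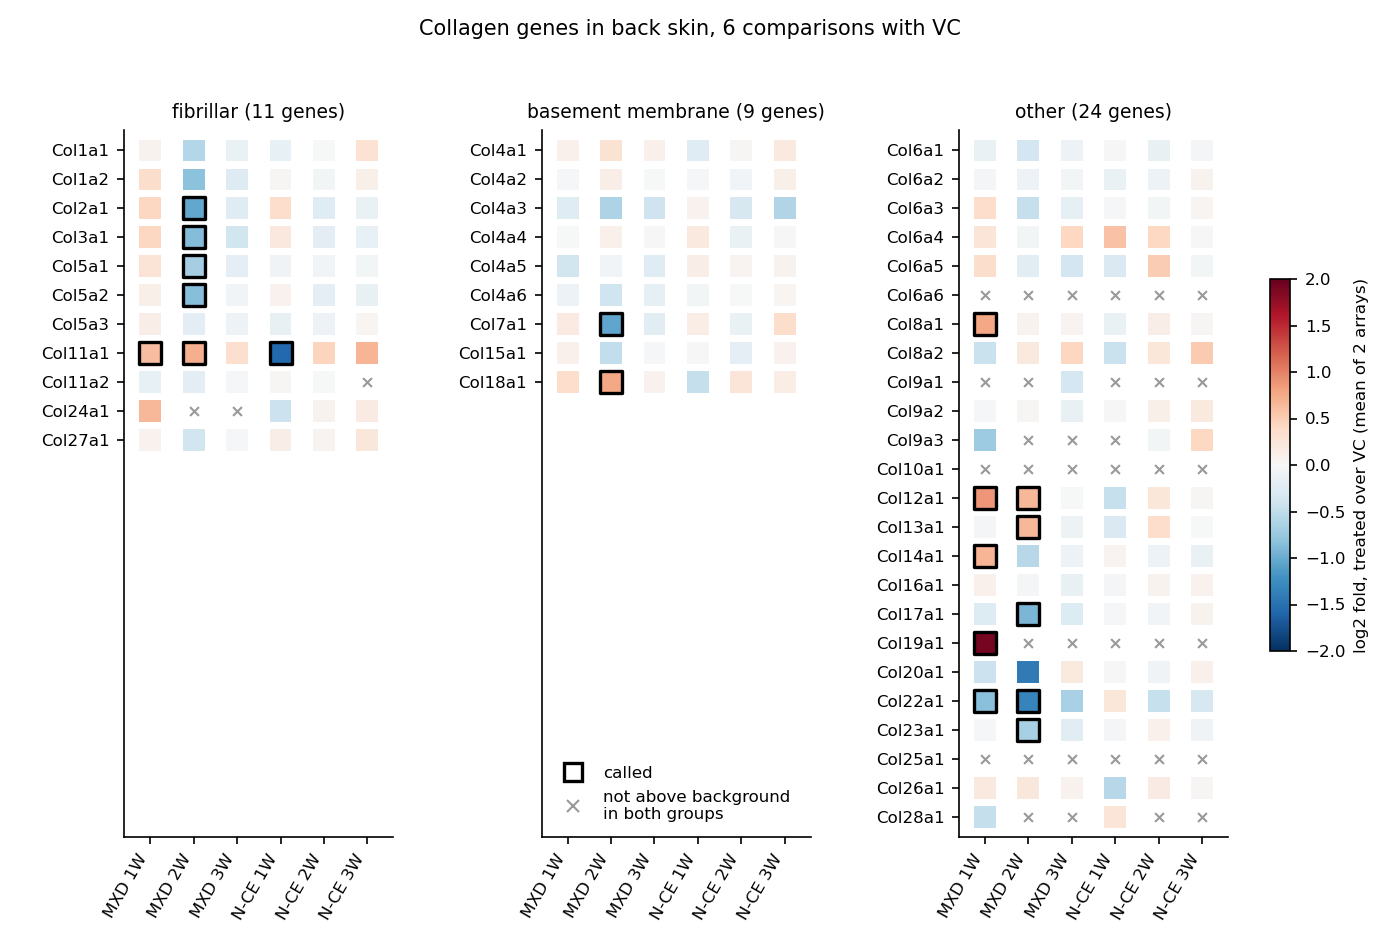
Each square is the log2 fold of 1 collagen gene (rows, by class) in 1 comparison with VC (columns), as the mean of 2 arrays; black frames mark called genes and crosses genes not above background in both groups. Frames stand in the MXD columns at 1W and 2W, and Col11a1 holds the frame in the N-CE columns.

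In MXD at 1W, fibrillar collagens lay above VC. Their median log2 fold was 0.27 ± 0.02 (SD of the 2 array medians), 10 of 11 genes had a mean above 0, and 9 were above 0 on both arrays. The medians of the basement membrane class and of the other collagens were -0.01 ± 0.04 and -0.02 ± 0.03. With the spots marked as outliers kept, the fibrillar median was 0.14. In the same comparison all 12 adipocyte markers were below 0 on both arrays, with a median of -0.31 and 0 called, and their summed signal was 247162 to 256558 against 322109 to 327933 in VC. Of the 9 macrophage and neutrophil markers, 2 were called up and 0 down, S100a8 at 2.89 and S100a9 at 2.51. Among all genes, 1.25% were called up and 1.31% down. The summed signal of these markers was 32023 to 37156 against 16926 to 19586. Of 14 fibroblast markers and 8 endothelial markers, 0 were called, with medians of 0.11 and 0.02. The part of these cells in the collagen values was not tested.

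Col11a1, the type XI chain found inside fibrils, read 0.65 on the array with treated RNA in Cy5 and 0.57 on the array with treated RNA in Cy3. It was the called fibrillar gene of that week, and with normexp background correction and loess its value was 0.57, just under the 1.5-fold threshold. Its processed signal was 1665 against 1058 in VC on the first array and 1509 against 1016 on the second. Col3a1, the type III collagen of elastic tissues, read 0.41 and 0.45 and was not called. Its signal was 46170 against 34647 and 51477 against 37605, so that treated skin was higher on both arrays. Col5a1 and Col5a2, chains of type V collagen that starts fibrils, had 0.27 ± 0.05 and 0.12 ± 0.09. Col1a2, a chain of type I collagen, had 0.35 from 1 array, because its spot on the other array was marked as an outlier, and it could not be called.

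The other called genes of MXD at 1W code for collagens outside the fibril core. Col12a1 and Col14a1, which bind to the surface of fibrils, had 0.88 ± 0.12 and 0.68 ± 0.03. Col8a1, a short-chain collagen of vessel walls and other sheet-like matrices, had 0.78 ± 0.08. Col19a1 had the highest value of the week, 1.92 ± 0.17. Its signals were low, at 181 against 52.3 in VC and 196 against 47.8, and it was above background in both groups in none of the other 5 comparisons. With normexp and loess, its log2 fold was 0.89.

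Col22a1, a collagen of the junction between muscle and tendon, was called down in MXD at 1W. It read -0.79 and -0.87, from signals of 81.4 against 141 and 82.1 against 150, and with normexp and loess it had -0.38, which is not past the fold threshold. The lowest means of that week besides it were -0.73 ± 0.80 for Col9a3, a chain of cartilage collagen IX, and -0.47 ± 0.57 for Col28a1, whose arrays differed widely. Skeletal muscle markers moved with Col22a1: 9 of 16 were called down and 1 up, against 1.31% and 1.25% of all genes. Their median was -0.66 ± 0.13. The summed signal of the 15 markers with a value on both arrays ran from 432433 to 453949 in the treated pool and from 669353 to 690661 in VC. The part of muscle in the Col22a1 value was not tested.

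In MXD at 2W, the fibrillar genes lay below VC with 1 exception. Their median was -0.63 ± 0.14, and 9 of the 10 measured genes were below 0 on both arrays. Col11a1 was above 0 on both. The medians of the basement membrane class and the other collagens were -0.07 ± 0.06 and -0.12 ± 0.21. The array medians of the basement membrane class were -0.16 and -0.24, both below its median over gene means. The fibrillar median with normexp and loess was -0.63 too.

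Among the major dermal collagens, Col3a1 read -0.98 and -0.73 and was called down. Its signal was 45040 against 89069 on the first array and 41898 against 69647 on the second. Col5a1 read -0.72 and -0.63 and Col5a2 -0.72 and -0.99, and both were called down. Col1a1, the main chain of type I collagen, read -0.44 and -0.73, and Col1a2 read -0.53 and -1.10. These values lie on the same side of VC on both arrays, but neither gene met the P criterion on both. A dimmer probe of Col1a2 met it, with -0.87 ± 0.27.

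Col2a1, the collagen of cartilage, was called down at -1.04 ± 0.14. This value rests on 1 of its 3 probes. The probe pair below is shown because the members share 40 bases, in capitals, and still behaved differently. They lie on the minus strand of chromosome 15, at chr15:97806505-97806564 and chr15:97806485-97806544 in mm9. The first gave 0.04 ± 1.25, with opposite signs on the 2 arrays, and the second gave the called value. A probe of the same gene elsewhere was below background in both groups of every comparison. The VC channel of the called probe holds the same RNA on the MXD and N-CE arrays of a week. After normexp, loess and quantile normalization, this channel differed between them by -0.72 at 2W and -0.63 at 3W. Cross-hybridization was not tested.
A_52_P216436: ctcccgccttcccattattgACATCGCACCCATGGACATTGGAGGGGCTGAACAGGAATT
A_51_P317141: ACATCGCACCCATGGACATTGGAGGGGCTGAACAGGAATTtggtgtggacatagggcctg

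The anchoring collagens of the dermal-epidermal junction were called down in MXD at 2W. Col7a1, which forms the anchoring fibrils, read -1.30 and -0.81. Col17a1, the membrane-spanning collagen of hemidesmosomes, read -1.07 and -0.76, and its dimmer probe was called down as well at -0.69 ± 0.18. Both genes were below VC on both arrays. In the other 5 comparisons, neither was called, and their means lay between -0.23 and 0.35 for Col7a1 and between -0.27 and 0.07 for Col17a1.

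Of the other collagens called down, Col22a1 read -1.19 and -1.50. Col23a1, a membrane-spanning collagen, had -0.67 ± 0.04. With normexp and loess these genes had -0.54 and -0.44. Col20a1 had the lowest mean, -1.41 ± 1.25, but its arrays read -0.53 and -2.29 and it was not called. Col14a1, called up a week earlier, had -0.55 ± 0.29 and was not called.

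The 4 collagens called up in MXD at 2W come from different branches of the family. Col11a1 read 0.67 and 0.78, from signals of 962 against 605 and 757 against 442. Col12a1 read 0.54 and 0.79. Col18a1, whose C-terminal fragment is endostatin and which lies in basement membranes, read 0.70 and 0.86, and its second probe gave 0.63 ± 0.34. Col13a1, a membrane-spanning collagen, read 0.58 and 0.74. Col11a1 and Col12a1 were also called up at 1W. With normexp and loess, Col18a1 had 0.77 and stayed past the 1.5-fold threshold at 2W, whereas Col11a1, Col12a1 and Col13a1 had 0.54, 0.52 and 0.45 and did not.

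**Figure D2:**
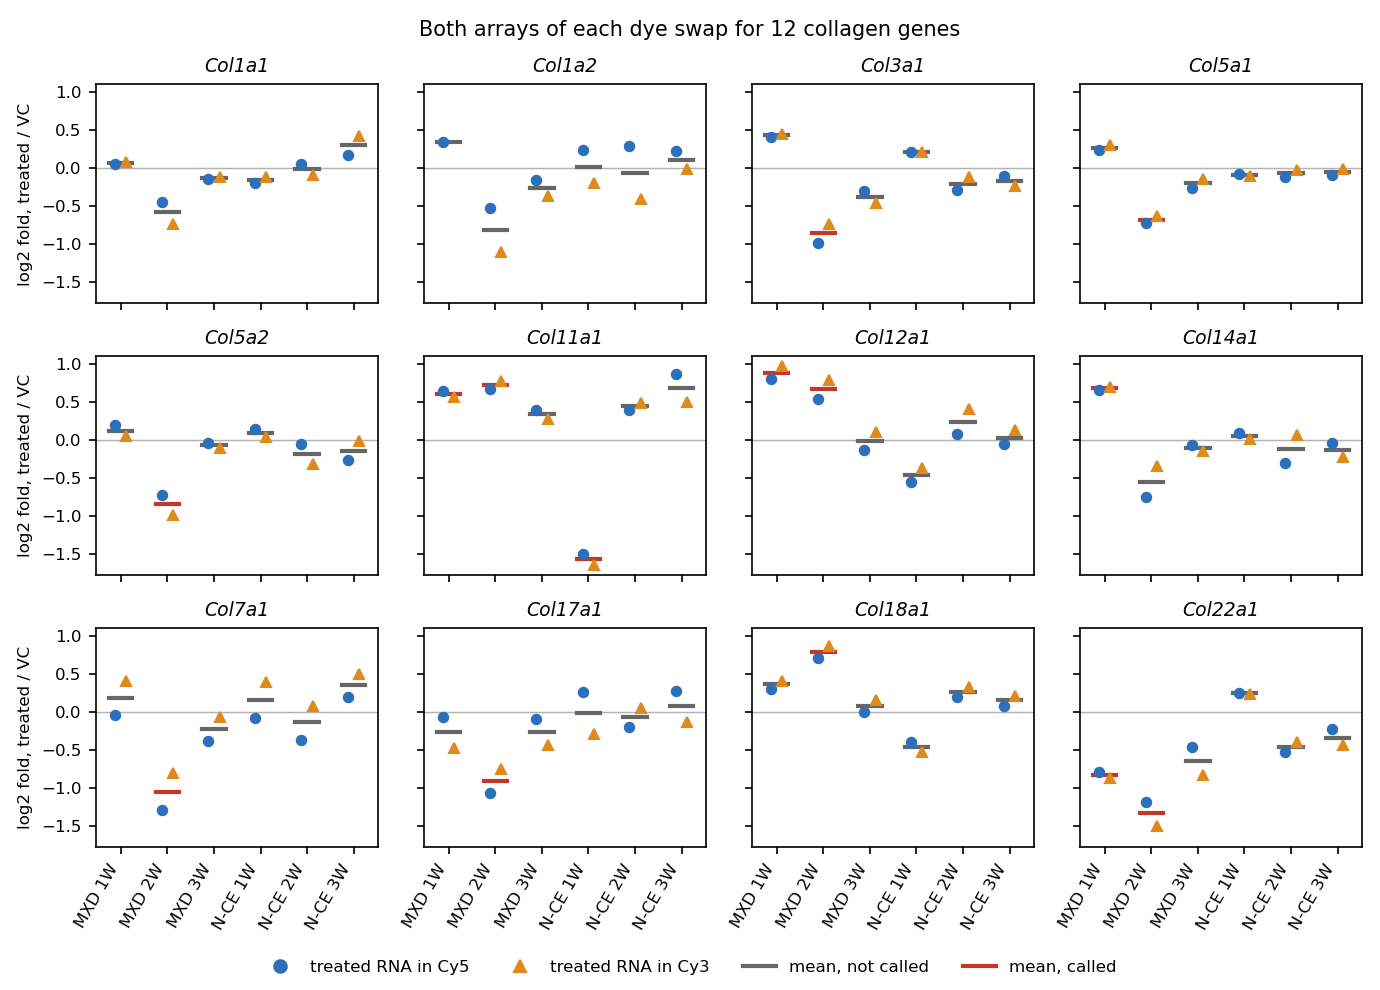
The vertical axis is the log2 fold of treated over VC for 12 collagen genes in 6 comparisons, circles being the array with treated RNA in Cy5, triangles the array with treated RNA in Cy3 and bars their mean (red where called). Col3a1, Col5a1 and Col5a2 dip in MXD at 2W, whereas Col11a1 drops in N-CE at 1W.

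The upstream sequences of Col3a1 and Col11a1 are printed because these fibrillar genes were called in opposite directions in MXD at 2W. Of the 44 genes, 35 have an entry in the RefSeq promoter table (GRCm38.p6), and 250 bases before the start are given on the gene's strand. The sequences CCAAT and TATAAA were searched for on both strands and are in capitals; they do not overlap here. CCAAT was present in 33.8% of 32851 windows of this length and in 12 of the 35 collagen windows, and TATAAA in 12.4% and in 5 of 35. Col3a1, at chr1:45311288-45311537, held TATAAA 1 time and had a GC content of 35.2%. Col11a1, at chr3:114030290-114030539, held CCAAT 1 time, on the opposite strand as ATTGG, and had a GC content of 62.4%. A match is a match of letters and not a bound site.
Col3a1: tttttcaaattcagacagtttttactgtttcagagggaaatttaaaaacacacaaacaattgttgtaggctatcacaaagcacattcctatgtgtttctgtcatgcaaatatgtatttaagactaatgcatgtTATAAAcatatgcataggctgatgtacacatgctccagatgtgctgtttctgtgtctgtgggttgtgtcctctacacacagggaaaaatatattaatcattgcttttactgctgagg
Col11a1: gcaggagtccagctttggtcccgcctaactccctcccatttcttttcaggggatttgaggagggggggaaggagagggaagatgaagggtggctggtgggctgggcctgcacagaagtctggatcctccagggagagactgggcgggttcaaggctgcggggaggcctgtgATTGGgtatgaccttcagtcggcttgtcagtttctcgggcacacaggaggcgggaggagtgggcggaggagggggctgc

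The machinery that makes, processes and crosslinks collagen was measured from a list of 36 genes, 31 of them on the array. In MXD at 2W, 26 were measured, and 6 were called down and 3 up, where 10.6% of all genes were called down and 6.49% up. The median was -0.54 ± 0.10 (normexp and loess, -0.38). Pcolce2, which enhances removal of the C-terminal propeptide, had -1.42 ± 0.19, and Lox, which crosslinks fibrils, had -0.83 ± 0.20. Serpinh1, the collagen chaperone HSP47, had -0.56 ± 0.20 and was not called. Plod2, a lysyl hydroxylase, had 1.23 ± 0.53 and was called up, as was Adamts3, a procollagen N-proteinase, at 1.04 ± 0.26. With normexp and loess these genes had 0.77 and 0.52, and Adamts14, the other gene called up, went from 0.73 to 0.39. At 1W, 0 of the 28 measured genes were called, and Serpinh1 and Lox had 0.33 ± 0.13 and 0.30 ± 0.03.

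The small proteoglycans that sit on fibrils had the lowest median among the lists of collagen partners in MXD at 2W, -0.83 ± 0.04, with 5 of 9 measured genes called down and 0 up. Asporin (Aspn) had -1.28 ± 0.14, lumican (Lum) -1.13 ± 0.12 and decorin (Dcn) -0.98 ± 0.17. At 1W, 1 of 10 was called, fibromodulin (Fmod), down at -0.70 ± 0.09, where 1.31% of all genes were called down. Of the basement membrane partners, 2 of 17 were called up and 3 down at 2W, against 6.49% and 10.6% of all genes. Fras1, a protein of the epidermal basement membrane, had 1.14 ± 0.03 and Lama2, a laminin chain of muscle, -1.02 ± 0.28. Of the collagen receptors, 2 of 8 were called down at 2W, Lair1 at -1.02 ± 0.47 (normexp and loess, -0.52) and Ddr2 at -0.89 ± 0.27.

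**Figure D3:**
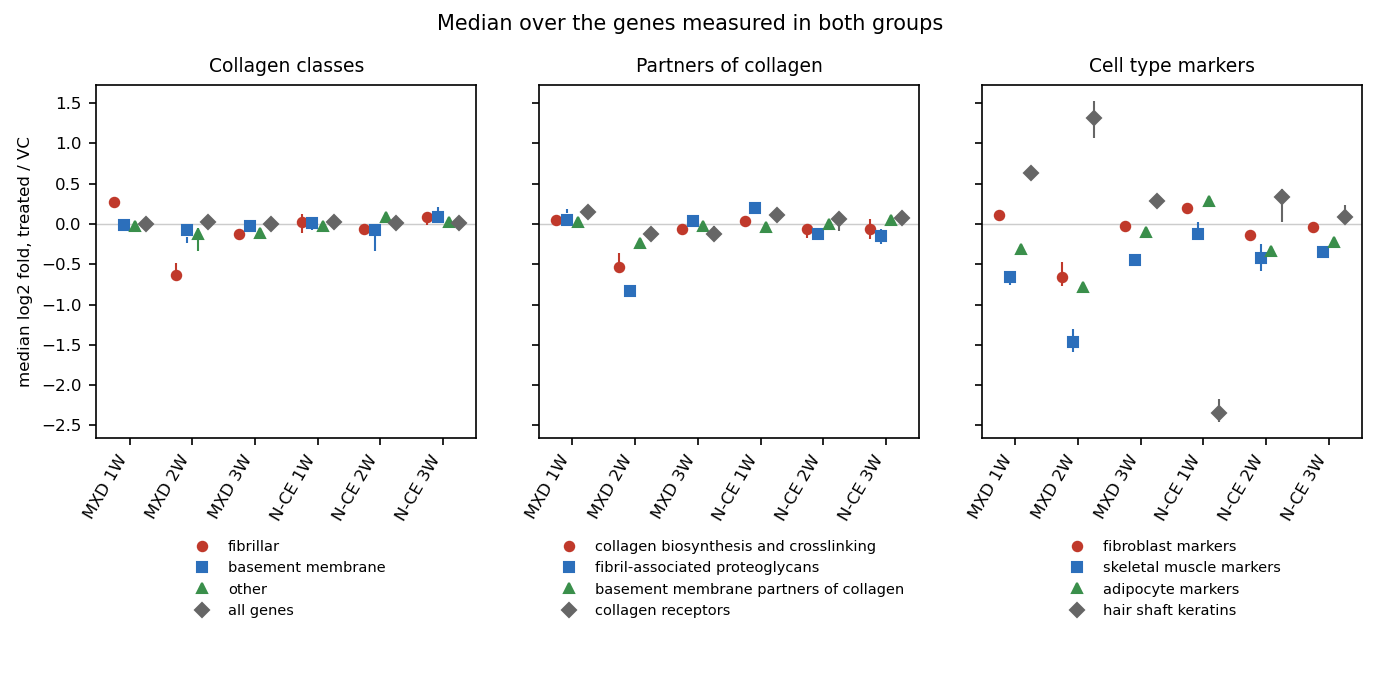
The vertical axis is the median log2 fold over the genes of a class or list measured in both groups, and lines join the medians of the 2 arrays; the columns are the 6 comparisons. In MXD at 2W the fibrillar median is -0.63 while hair shaft keratins are at 1.32, and in N-CE at 1W the keratins are at -2.35 with the collagen classes near 0.

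Markers of several cell types moved in the same comparison, in which 10.6% of all genes were called down and 6.49% up. In MXD at 2W, 6 of 14 fibroblast markers were called down and 0 up, with a median of -0.66 ± 0.21 and a summed signal of 88402 to 123009 against 177834 to 263999 in VC. Of the adipocyte markers, 8 of 12 were called down (median -0.78 ± 0.02; summed signal 232658 to 317570 against 379794 to 482061). All 16 skeletal muscle markers were called down (median -1.46 ± 0.20; 331422 to 553792 against 1011454 to 1351746). Of 8 endothelial markers, 3 were called down (median -0.39 ± 0.23; 11814 to 14478 against 18343 to 19879). All 10 hair shaft keratins were called up (median 1.32 ± 0.33; 742208 to 895533 against 319608 to 335436). Of the 9 macrophage and neutrophil markers, 1 was called up and 2 down. Of the markers on the array, 0 were below background in both groups on any of these 6 lists. Their part in the collagen values was not tested.

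In N-CE at 1W, 38 collagens were measured, and the class medians were 0.02 ± 0.16 for the fibrillar genes, 0.01 ± 0.05 for the basement membrane zone and -0.03 ± 0.01 for the others. Col11a1 stood apart. It read -1.50 and -1.65, from signals of 320 against 903 in VC and 313 against 983. Treated skin was below VC on both arrays. The second probe of Col11a1 read -2.57 and -1.73, but it was above background in VC alone. Col18a1 and Col12a1, which were called up in MXD at 2W, had -0.47 ± 0.09 and -0.46 ± 0.12 in N-CE at 1W and were not called. The main dermal chains lay close to VC, with -0.16 ± 0.05 for Col1a1, 0.02 ± 0.31 for Col1a2 and 0.21 on both arrays for Col3a1. Col5a1 and Col5a2 had -0.09 ± 0.01 and 0.09 ± 0.07. Col26a1 had -0.56 ± 0.25, and the highest values were 0.58 ± 0.63 for Col6a4, a type VI chain, 0.36 ± 0.15 for Col2a1 and 0.26 ± 0.24 for Col28a1.

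Hair shaft keratins moved in the same comparison as Col11a1. All 10 were called down in N-CE at 1W, where 2.73% of all genes were called down. Their median was -2.35 ± 0.20, with a summed signal of 16628 to 19676 against 95345 to 96101 in VC. In MXD at 1W, where Col11a1 was called up, 4 of 10 were called up, against 1.25% of all genes. The keratin median there was 0.63 ± 0.10, and the summed signal was 154301 to 163193 against 94743 to 98218. The keratins did not follow Col11a1 everywhere. In N-CE at 3W, where Col11a1 was above VC on both arrays, the keratin median was 0.08 ± 0.13, with 0 called. The keratin medians were 0.33 ± 0.28 in N-CE at 2W and 0.29 ± 0.02 in MXD at 3W, with 0 called. Fras1 and Adamts3, called up with Col11a1 in MXD at 2W, were called down in N-CE at 1W at -1.22 ± 0.20 and -1.43 ± 0.52. With normexp and loess, Adamts3 had -0.44. In MXD at 1W neither was called, with 0.37 ± 0.11 for Fras1 and 0.06 ± 0.29 for Adamts3, whose arrays had opposite signs. The other partners called up in MXD at 2W were not called in N-CE at 1W. There Plod2 had -0.41 ± 0.56, Adamts14 -0.10 ± 0.04 and Lama5 -0.56 ± 0.18. The part of hair follicles in the Col11a1 value was not tested.

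In N-CE at 2W and 3W, 0 of 38 and 0 of 37 measured collagens were called. At 2W, the highest means were those of Col6a5 at 0.50 ± 0.15, Col11a1 at 0.44 ± 0.07 and Col6a4 at 0.42 ± 0.97. The lowest were those of Col22a1 at -0.46 ± 0.10, Col4a3 at -0.34 ± 0.30 and Col2a1 at -0.24 ± 0.18. At 3W, Col11a1 read 0.87 and 0.50, Col8a2, a partner chain of type VIII collagen, had 0.52 ± 0.08, and Col9a3 0.42 ± 0.35. Col4a3, a type IV chain known from the kidney basement membrane, had -0.60 ± 0.17, Col22a1 -0.34 ± 0.15 and Col3a1 -0.17 ± 0.09. Col1a1 had -0.01 ± 0.11 at 2W and 0.30 ± 0.18 at 3W. In these weeks the values of Col1a2, Col5a1 and Col5a2 lay between -0.19 and 0.11, and Col3a1 had -0.21 ± 0.12 at 2W. Dimmer probes that were not called read as high as 0.33 for Col1a2, 0.58 for Col5a1 and 0.39 for Col3a1 at 3W. At 2W they read as low as -0.21, -0.24 and -0.26. Col18a1 had 0.26 ± 0.10 and 0.15 ± 0.09. Of the partner lists, 0 genes were called at either week.

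In MXD at 3W, 0 of 37 measured collagens were called, and the fibrillar median was -0.12 ± 0.01. Col8a2 had 0.43 ± 0.10, Col6a4 0.41 ± 0.62 and Col11a1 0.34 ± 0.09. Col22a1 had -0.65 ± 0.25, Col4a3 -0.41 ± 0.22 and Col3a1 -0.38 ± 0.11. Col9a3 was above background in VC alone, so it is not among the measured genes. Its deposited ratios gave -1.38 ± 0.43, and its bound was 1.14-fold. For Col22a1, the readings were -0.47 and -0.83, and 4 of 16 muscle markers were called down, against 0.285% of all genes. Of the main fibrillar chains, Col1a1 had -0.13 ± 0.02, Col1a2 -0.26 ± 0.15, Col5a1 -0.20 ± 0.09 and Col5a2 -0.07 ± 0.04. Col18a1 had 0.08 ± 0.12, after 0.36 ± 0.08 at 1W. In N-CE at 1W, where Col22a1 had 0.24 ± 0.01, 0 of 16 muscle markers were called. Their median was -0.13 ± 0.13, and 11 had a mean below 0. In N-CE at 2W and 3W the mean of Col22a1 was below 0. All 16 muscle markers were below 0 there too, with medians of -0.42 ± 0.24 and -0.35 ± 0.05.

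Several type IV chains of basement membranes read on opposite sides of VC with the dye orientation at 2W. Such opposite signs were not particular to them. In that week they were found for 11 of 36 collagens and 29% of all genes in MXD. In N-CE they were found for 18 of 38 collagens and 60.3% of all genes. The arrays of Col4a1 read 0.69 and -0.11 for MXD and 0.42 and -0.39 for N-CE. Col4a2, its partner chain, read 0.52 and -0.24 in MXD and 0.25 and -0.38 in N-CE. The type VI chains Col6a1 and Col6a2 did the same, with 0.14 and -0.87 for Col6a1 in MXD and 0.29 and -0.59 in N-CE. In each of these pairs the array with treated RNA in Cy5 gave the higher value, and the means of Col4a1 and Col4a2 at 2W, which lay between -0.07 and 0.29, were within their SD of 0.45 to 0.57. Col15a1, a basement membrane zone collagen of vessels and muscle, had -0.49 ± 0.25 in MXD at 2W. Its means elsewhere ran from -0.19 to 0.10. Its dimmer probe had 0.44 ± 1.94 in MXD at 2W, with opposite signs on the 2 arrays. At 1W and 3W the means of Col4a1 and Col4a2 lay between -0.24 and 0.20. Dimmer probes of Col6a2 and Col4a4 were called down in MXD at 2W, at -0.83 and -0.90. The brightest probes of these genes were not called.

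**Figure D4:**
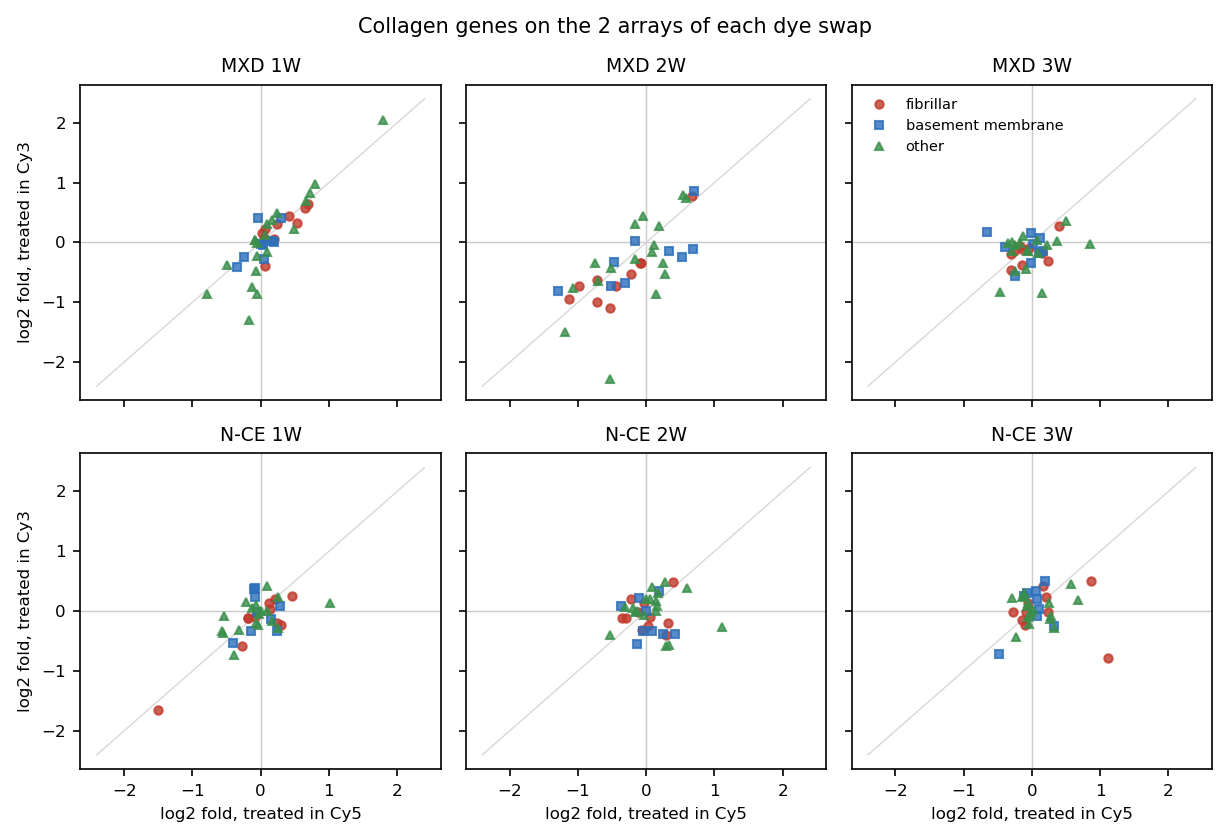
Each point is a collagen gene measured in both groups, with the log2 fold on the array with treated RNA in Cy5 on the horizontal axis and that with treated RNA in Cy3 on the vertical axis; each panel is 1 comparison and the diagonal marks equal values. Points follow the diagonal in MXD at 1W and 2W and scatter around 0 in N-CE at 2W and 3W.

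The dye swap gives the reliability of these values. For MXD, the 2 arrays correlated across 39, 36 and 37 collagen genes at r = 0.86, 0.70 and 0.27 in weekly order. For N-CE, r was 0.67, -0.01 and 0.05 across 38, 38 and 37 genes. These correlations are across genes of 1 pair of pools, and genes are not independent replicates. Across all genes, r was 0.39, 0.64 and 0.09 for MXD and 0.53, -0.19 and 0.2 for N-CE. Opposite signs on the 2 arrays were found for 7 of 39, 11 of 36 and 13 of 37 collagen genes in MXD. The share of all genes was 34%, 29% and 44.8%. In N-CE the counts were 12 of 38, 18 of 38 and 16 of 37, against 36.4%, 60.3% and 41.6% of all genes. As a technical reference, the VC pool on the MXD arrays and on the N-CE arrays of a week differed by a median absolute log2 value of 0.09, 0.15 and 0.20 across collagens in weekly order. Across all genes it was 0.08, 0.17 and 0.17. These channel values were taken after normexp (offset 50), loess and quantile normalization, a scale other than the deposited ratios.

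Probes of the same gene did not always read alike. Col1a1 has 3 probes that span 13.8 kb of chromosome 11 in mm9, and its outermost upstream probe and the next are shown because they were called differently. In MXD at 1W the probe nearest the gene's start was called up at 0.90 ± 0.11, the next had 0.24 ± 0.18, and the one farthest downstream, the brightest, had 0.07 ± 0.03. In N-CE at 3W the first was called up as well, at 0.74 ± 0.26, and the others had 0.30 ± 0.07 and 0.30 ± 0.18. In MXD at 2W all 3 were below 0, at -0.66 ± 0.19, -0.44 ± 0.23 and -0.58 ± 0.20. The pair printed lies on the plus strand, at chr11:94799277-94799336 and chr11:94812052-94812111.
A_52_P658611: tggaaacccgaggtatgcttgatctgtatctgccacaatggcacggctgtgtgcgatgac
A_51_P377094: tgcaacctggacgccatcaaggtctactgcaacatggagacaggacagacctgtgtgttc

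Col3a1 read alike with its 3 probes in MXD at 2W, at -0.86 ± 0.18, -0.67 ± 0.04 and -0.63 ± 0.33, and the first and second were called. Of the genes with several measured probes, the probes lay on opposite sides of 0 for 4 of 22 genes in MXD at 1W. The counts were 6 of 23 and 4 of 15 in the next weeks of MXD. In N-CE they were 12 of 18, 4 of 22 and 8 of 20 in weekly order. Calls differed between probes of a gene in 5, 10 and 0 genes for MXD and in 1, 0 and 1 for N-CE.

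**Figure D5:**
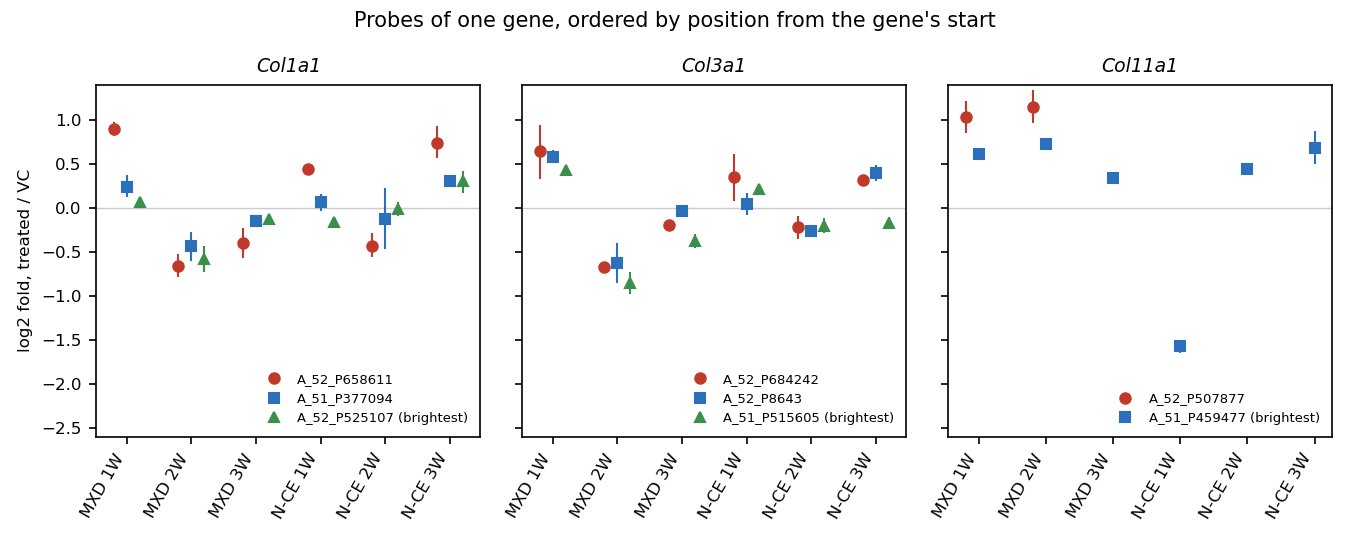
The vertical axis is the log2 fold of treated over VC for each probe of Col1a1, Col3a1 and Col11a1 that was above background in both groups, the lines joining the 2 arrays and the columns being the 6 comparisons. The upstream probe of Col1a1 stands at 0.90 in MXD at 1W, above the other probes at 0.24 and 0.07.

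Across weeks, limma was fitted to the 3 weekly folds of each treatment, with weeks in place of replicates. Of the 87 collagen probes, 0 passed an adjusted p of 0.05 in MXD, in N-CE or in their difference, as did 0 of all probes. At an unadjusted p below 0.05 there were 9 collagen probes in MXD, 1 in N-CE and 4 in the difference. Without week 1 these counts were 2, 13 and 6, without week 2 they were 9, 4 and 1, and without week 3 they were 7, 3 and 9. The background share at that level, with all weeks, was 7.54% of all probes in MXD, 3.65% in N-CE and 4.92% in the difference. Without week 1 it was 4.38%, 12.1% and 3.7% in the same order, and without week 2 it was 7.99%, 3.82% and 3.24%. With week 3 left out it was 7.15%, 3.43% and 12.1%. By limma with Benjamini-Hochberg adjustment, Col11a1 had a mean of 0.56 ± 0.10 (SE) over the MXD weeks (adjusted p = 0.63) and Col22a1 one of -0.94 ± 0.18 (adjusted p = 0.63). For the difference MXD minus N-CE, limma gave Col22a1 -0.76 ± 0.19 (adjusted p = 0.75) and Col11a1 0.71 ± 0.63 (adjusted p = 0.77). Over the N-CE weeks, Col11a1 had a limma mean of -0.15 ± 0.62 (adjusted p = 1). Col11a1 and Col22a1 each had the same sign in all 3 MXD weeks.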

How the data were processed

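The authors hybridized 12 Agilent mouse arrays and processed the scans with Feature Extraction, version 12.0.3.1 per the file headers and 11.0.1.1 per the labels. Background was subtracted and dyes were balanced by LOWESS before the deposited log10 ratio of Cy5 over Cy3. The error model of the software gave the deposited p-value of a spot. Both channels' intensity was deposited too, and the authors' series table equals the log10 ratio of processed intensities within 1e-08. Positions of probes refer to mm9. Genes are called as on the arrays, and all 44 collagen symbols are in the RefSeq gene table.

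Python 3.11.15 (numpy 2.4.6, pandas 2.3.3) and R 4.3.3 (limma 3.58.1) were used. Each ratio was expressed as log2 of treated over VC, and spots marked as outliers (143 to 355 per array, 0 to 4 of collagens) were left out. Spots of a probe and then the dye swap were averaged. A gene above background in 1 group only has a bound. The bounds were taken after normexp (offset 50), loess and quantile normalization, a scale other than the deposited ratios, and did not exceed 1.14-fold. The number of arrays limits the precision. The error of a median is the SD of the 2 array medians. The median itself is taken over the mean of each gene, so it can lie outside both array medians, and the SD describes the arrays alone. The steps were tested on simulated data.

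Fixed for naming were Col1a1, Col1a2, Col3a1, Col5a1, Col5a2, Col4a1, Col4a2, Col7a1, Col15a1, Col17a1 and Col18a1. Added in each comparison were called collagens and the 3 highest and 3 lowest measured, with Serpinh1, Lox and at most 3 genes of another list. Other genes and probes named were chosen after their values were seen. The members, classes and the 10 other lists were chosen with earlier results of these data known. Alternatives covered the P and fold criteria, dim probes, outlier marks, each array alone, all probes of a gene, normexp (offset 50) with loess, the series table, and for limma a random block for the slide and fits without 1 of the weeks.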

Additional observations from a re-analysis of the deposited data

Results flagged for a closer look

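Col11a1 at 1W differed in direction between the treatments. Both MXD arrays lay above VC (0.65 and 0.57) and both N-CE arrays below it (-1.50 and -1.65), a difference of 2.19 on the log2 scale between the means. The difference was not tested, because each group is 1 pool, and both comparisons share the VC pool of that week.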

How the results depend on the processing

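With the fold thresholds alone and no P, the collagen genes called down numbered 5, 15 and 1 in MXD in weekly order, and 6, 1 and 1 in N-CE, where 1 was called up at 3W. With every probe counted, 2 and 13 were called down in MXD at 1W and 2W and 2 in N-CE at 1W, and 1 up in N-CE at 3W. Normexp and loess with folds alone gave 0 down at 1W and 1 up and 13 down at 2W in MXD, and 3 down in N-CE at 1W. On the array with treated RNA in Cy3 alone, 2, 14 and 1 were called down in MXD and 2, 2 and 1 in N-CE. On the array with treated RNA in Cy5 alone, 3 were called down in N-CE at 1W and 1 up at 3W. Symmetric folds, no filter on dim probes and outlier spots kept left the 12 counts within 1.5 times.

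Of the class medians, in the order MXD at 1W, 2W and 3W and then N-CE, the Cy5 array alone gave 0.24, -0.48 and -0.15 for fibrillar genes in MXD. For the basement membrane zone it gave 0.03, -0.16 and, in N-CE at 1W, -0.08, and for the others -0.08 in MXD at 3W and -0.06 in N-CE at 1W. The Cy3 array alone gave fibrillar medians of -0.16 in MXD at 3W, and -0.11 and -0.01 in N-CE at 2W and 3W. It gave -0.24, -0.33 and 0.21 for the basement membrane zone in MXD at 2W and in N-CE at 2W and 3W, and 0.04, -0.34, -0.05 and -0.07 for the others in MXD and in N-CE at 1W. The mean over probes of a gene gave fibrillar medians of 0.33 and -0.08 in MXD at 1W and 3W, and of -0.16 and 0.18 in N-CE at 2W and 3W. It gave 0.03 and 0.1 for the basement membrane zone at 1W in MXD and N-CE, and 0.04 and 0.01 for the others. Type IV chains alone had -0.07, 0.02 and -0.09 in MXD. Without the filter on dim probes, the other collagens had -0.15 in MXD at 3W, and -0.09 and 0.01 in N-CE at 1W and 2W. Normexp and loess gave 0.0 for the basement membrane zone in MXD at 2W, and outlier spots kept gave 0.14 for fibrillar genes in MXD at 1W. The cause was not tested. The fibrillar median in MXD stayed above 0 at 1W and below 0 at 2W under all of these.

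With normexp and loess, 21 of the 102 values of named collagens moved by at least the SD of their arrays. Among called collagens in MXD, Col19a1 at 1W came to 0.89 and Col22a1 at 2W to -0.54. The limma counts at an adjusted p of 0.05 were 0 under every alternative. At an unadjusted p, leaving out a week gave 2 to 9 collagen probes in MXD, 3 to 13 in N-CE and 1 to 9 in the difference. The share of all probes in those fits ran from 4.38% to 7.99%, 3.43% to 12.1% and 3.24% to 12.1%. No paired analysis was possible because replicate numbers do not pair samples here, each group being 1 pool numbered 1. The weekly difference MXD minus N-CE pairs the treatments by week instead. Dim probes such as those of Col19a1 and Col22a1 limit the precision.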
